A study of Mus musculus with 12 samples.

Results

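The 9 genes described here are the scavenger receptor set of liver sinusoidal endothelium: Stab1, Stab2, Lyve1, Clec4g, Fcgr2b, Mrc1, Oit3, Dnase1l3 and Cd36. They were chosen by name as genes of that cell type's uptake machinery, out of 54227 gene symbols in the table. All 9 passed the filter on low values (an average of 10 or more), as did 16128 symbols in all. The libraries came from primary dissociated liver cells of mice carrying the Sox9EGFP transgene, a green fluorescent reporter named for the biliary transcription factor gene Sox9, on the C57Bl/6 strain. Every mouse was fasted for 16 hours, and every library therefore shares the transgene, the strain and the fast. Cells were sorted by EGFP fluorescence into 4 populations, an EGFP-negative one (neg), a faint one that the labels call sublow (sub), and low and high ones, with 3 libraries of 12000 cells each and 12 libraries in all. The mice's age and sex are not given in the sources used here. The labels do not state that the libraries of a population came from separate animals, so p-values measure only the spread between these samples, which may be technical. Same-numbered libraries of the 4 populations share a tag in the labels, whose meaning is not stated.

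Sinusoidal endothelial cells line the capillaries of the liver lobule and form one of the body's main filters of the blood. They take up modified proteins, matrix fragments, immune complexes and nucleic acids by receptor-mediated endocytosis, and clathrin-coated pits carry the receptors to endosomes and lysosomes. Stabilin-1 and stabilin-2, the products of Stab1 and Stab2, are large receptors that bind many polyanionic ligands, and stabilin-2 is the main receptor by which the liver clears hyaluronan from blood. LYVE1 is a second hyaluronan receptor, best known from lymphatic vessels. The mannose receptor (Mrc1) and the lectin LSECtin (Clec4g) bind sugars, the inhibitory Fc receptor (Fcgr2b) takes up small immune complexes, and CD36 takes up fatty acids and oxidised lipoproteins. Dnase1l3 encodes a secreted nuclease that degrades chromatin in the circulation, so it is no receptor but is made by the same cells, and Oit3 encodes a secreted or membrane-bound zona pellucida domain protein used as a marker of them.

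Values are normalised counts as deposited, on a linear scale unless stated. Libraries held 8775387 to 15535588 recovered reads. Some genes used by every cell, such as Tbp or Hprt, were listed at 0 in 4 libraries (sub 2, sub 3, low 2 and high 2), so a 0 is given below as a listed value and not as absence of the RNA. Among genes at 500 or more in both other libraries of a population, the share listed at 0 in the remaining library ranged from 0.380% in high 2 to 5.71% in sub 2. The label check was the reporter's own gene: Sox9 stood at 0.691, 0 and 0 in the neg libraries and at 3707 to 17140.4 in the other 9. The neg libraries held pan-endothelial markers at 135819 to 175117 summed over 12 genes, led by Ptprb, an endothelial receptor phosphatase, and Kdr, a receptor for vascular growth factor. They also held stellate and mesenchymal markers, at 24824 to 40688 over 14 genes, so neg was a mixture of cell types.

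Each member was located in the GENCODE M21 annotation of GRCm38. Stab1 lies at chr14:31139013-31168641 and Stab2 at chr10:86841198-87008025, both on the minus strand, with 10288 and 8757 bases of merged exons. Lyve1 lies at chr7:110850607-110863239, Clec4g at chr8:3707064-3720651, Fcgr2b at chr1:170958617-170976547, Oit3 at chr10:59422958-59441778, Dnase1l3 at chr14:7964533-7994573 and Cd36 at chr5:17781690-17888801, all on the minus strand. Mrc1 lies on the plus strand at chr2:14229392-14332057. An exon of Nt5dc2 overlaps Stab1 on the opposite strand, and whether strand was used in counting is not given in the sources used here. Nt5dc2 stood at 0, 1.22 and 169 in neg, at 0, 0 and 653 in sub and at 0 in every brighter library, below Stab1 in each neg and sub library. The antisense transcripts that overlap exons of Stab2 (Gm16268), Clec4g (Gm16553) and Fcgr2b (Gm38204) were at 0 in all 12 libraries, as were Fcgr3 and Fcgr4, the Fc receptor genes related to Fcgr2b.

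Since the genes lay high and low in the same populations, the 250 bases upstream of their starts are shown for the 3 members highest in neg and for Cd36, whose profile was least like the others'. The sequences are RefSeq's, on build GRCm38.p6, read 5′ to 3′ on the gene's own strand, and 6 of the 9 members had a window in the table (Stab1, Stab2, Clec4g, Fcgr2b, Mrc1 and Cd36). Capitals mark the ETS-type core AGGAAG or CGGAAG on either strand, the letters bound by the ETS family to which the endothelial factors Erg and Ets1 belong. RefSeq's starts differ from the 5′ ends of the GENCODE spans given above, lying inside the span by 83 bases for Stab2, 22 for Mrc1, 476 for Fcgr2b and 52905 for Cd36, so the Cd36 window is upstream of an internal start. The windows are chr14:31168642-31168891 (minus) for Stab1, chr10:87007943-87008192 (minus) for Stab2, chr2:14229164-14229413 (plus) for Mrc1 and chr5:17835897-17836146 (minus) for Cd36.
Stab1: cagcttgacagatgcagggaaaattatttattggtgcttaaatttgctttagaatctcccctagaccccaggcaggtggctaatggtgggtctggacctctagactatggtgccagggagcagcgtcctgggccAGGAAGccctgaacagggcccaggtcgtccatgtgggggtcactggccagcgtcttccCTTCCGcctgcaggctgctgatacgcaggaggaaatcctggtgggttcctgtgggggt
Stab2: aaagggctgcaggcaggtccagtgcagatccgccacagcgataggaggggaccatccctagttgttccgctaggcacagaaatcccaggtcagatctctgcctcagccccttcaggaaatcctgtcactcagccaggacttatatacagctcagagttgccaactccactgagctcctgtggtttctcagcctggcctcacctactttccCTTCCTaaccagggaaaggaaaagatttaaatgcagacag
Mrc1: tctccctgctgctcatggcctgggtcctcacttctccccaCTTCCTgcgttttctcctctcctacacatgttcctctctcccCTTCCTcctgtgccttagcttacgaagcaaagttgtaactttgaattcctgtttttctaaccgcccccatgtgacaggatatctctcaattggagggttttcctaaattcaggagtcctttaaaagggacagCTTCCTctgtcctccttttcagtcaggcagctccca
Cd36: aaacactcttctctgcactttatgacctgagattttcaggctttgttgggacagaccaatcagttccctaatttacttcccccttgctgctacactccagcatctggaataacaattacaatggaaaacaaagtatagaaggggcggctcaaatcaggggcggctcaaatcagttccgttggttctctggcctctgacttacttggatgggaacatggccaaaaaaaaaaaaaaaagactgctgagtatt
The ETS-type core was present in 4 of the 6 windows, with 2 matches in Stab1, 1 in Stab2, 3 in Mrc1 and 3 in Clec4g, where 2 of them overlap. It was found in neither Fcgr2b nor Cd36. Of all 32851 windows of the same length, 39.2% held it. A GATA-type core (AGATAA, the variant TGATAA, and the same letters ending in G, AGATAG as well as TGATAG, on either strand) was in 1 of 6 windows, that of Clec4g, against 26.5% of all windows. The letters TGCTGA, part of the element bound by MAF factors, were in 2 of 6, Stab1 and Cd36, against 16.1%. The AP-1 element TGANTCA was in 0 of 6 against 6.75%, and the TATA box TATAAA in 1 of 6, Clec4g, against 12.4%. A match describes the letters in the window only.

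The stabilins were among the 3 highest members in neg. Stab2 stood at 33542, 33451 and 23317 in neg, at 5013, 7516 and 4188 in sub, at 732, 118 and 0 in low, and at 0.865, 159.7 and 96.4 in high. Stab1 stood at 17503, 20196 and 9939 in neg, at 3364, 3829.7 and 6038 in sub, at 203, 44.2 and 11.5 in low, and at 0.865, 5.05 and 0 in high. For both genes every neg library was above every sub library, and every sub library above every low and high library. The low libraries overlapped the high ones for Stab2 but not for Stab1, whose 4 populations lay in order without any overlap of neighbours.

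Mrc1, the mannose receptor, followed the stabilins in neg and sub and differed from them in low and high. It stood at 17394, 17674 and 10969 in neg and at 4902, 3210.3 and 3790.3 in sub. In low it was near 0 in 2 libraries, at 0.742 and 0.850, and at 424 in the other, and in high it stood at 92.6, 1.01 and 350.4. Fcgr2b, the Fc receptor, stood at 8561, 8983 and 3693 in neg, at 794, 1562 and 255 in sub, at 23.7, 122 and 15.6 in low, and at 0, 61.7 and 0.817 in high. Neither gene overlapped between neg and sub or between sub and the brighter populations, and both overlapped between low and high.

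The lectin gene Clec4g stood at 2911, 4854 and 3171 in neg and at 741, 0 and 832 in sub. It was listed at 8.16, 0 and 0 in low and at 0, 0 and 19.6 in high. Oit3 stood at 4470.2, 5075 and 2136 in neg, at 1698, 1378 and 0 in sub, at 207, 0 and 0 in low, and at 0 in all 3 high libraries. The nuclease gene Dnase1l3 stood at 7525, 5530.2 and 7649 in neg, at 493, 0 and 2220.3 in sub, at 0.742, 0 and 427 in low, and at 83.9, 238 and 0 in high. These 3 genes were all clear in neg and each was listed at 0 in 1 sub library, a different library for Oit3 (sub 3) than for Clec4g and Dnase1l3 (sub 2). Their sub libraries lay below their neg libraries and overlapped the low ones.

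Lyve1 and Cd36 were the lowest members in neg and the only members whose neg and sub libraries overlapped. Lyve1 stood at 1045, 379 and 474 in neg and at 1772, 121 and 21.9 in sub, so that 1 sub library exceeded every neg library and the other sub libraries lay below them. It was listed at 0 in all 3 low libraries and at 102, 0 and 0 in high. Cd36 stood at 2625, 1107 and 0 in neg, at 1154, 1856 and 1233 in sub, at 105, 0 and 2.47 in low, and at 272, 78.8 and 0 in high. Its 3 sub libraries were closer together, by ratio, than those in any other population, and the neg library at 0 was one in which 4.55% of genes that were at 500 or more in both other neg libraries were listed at 0.

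**Figure D1:**
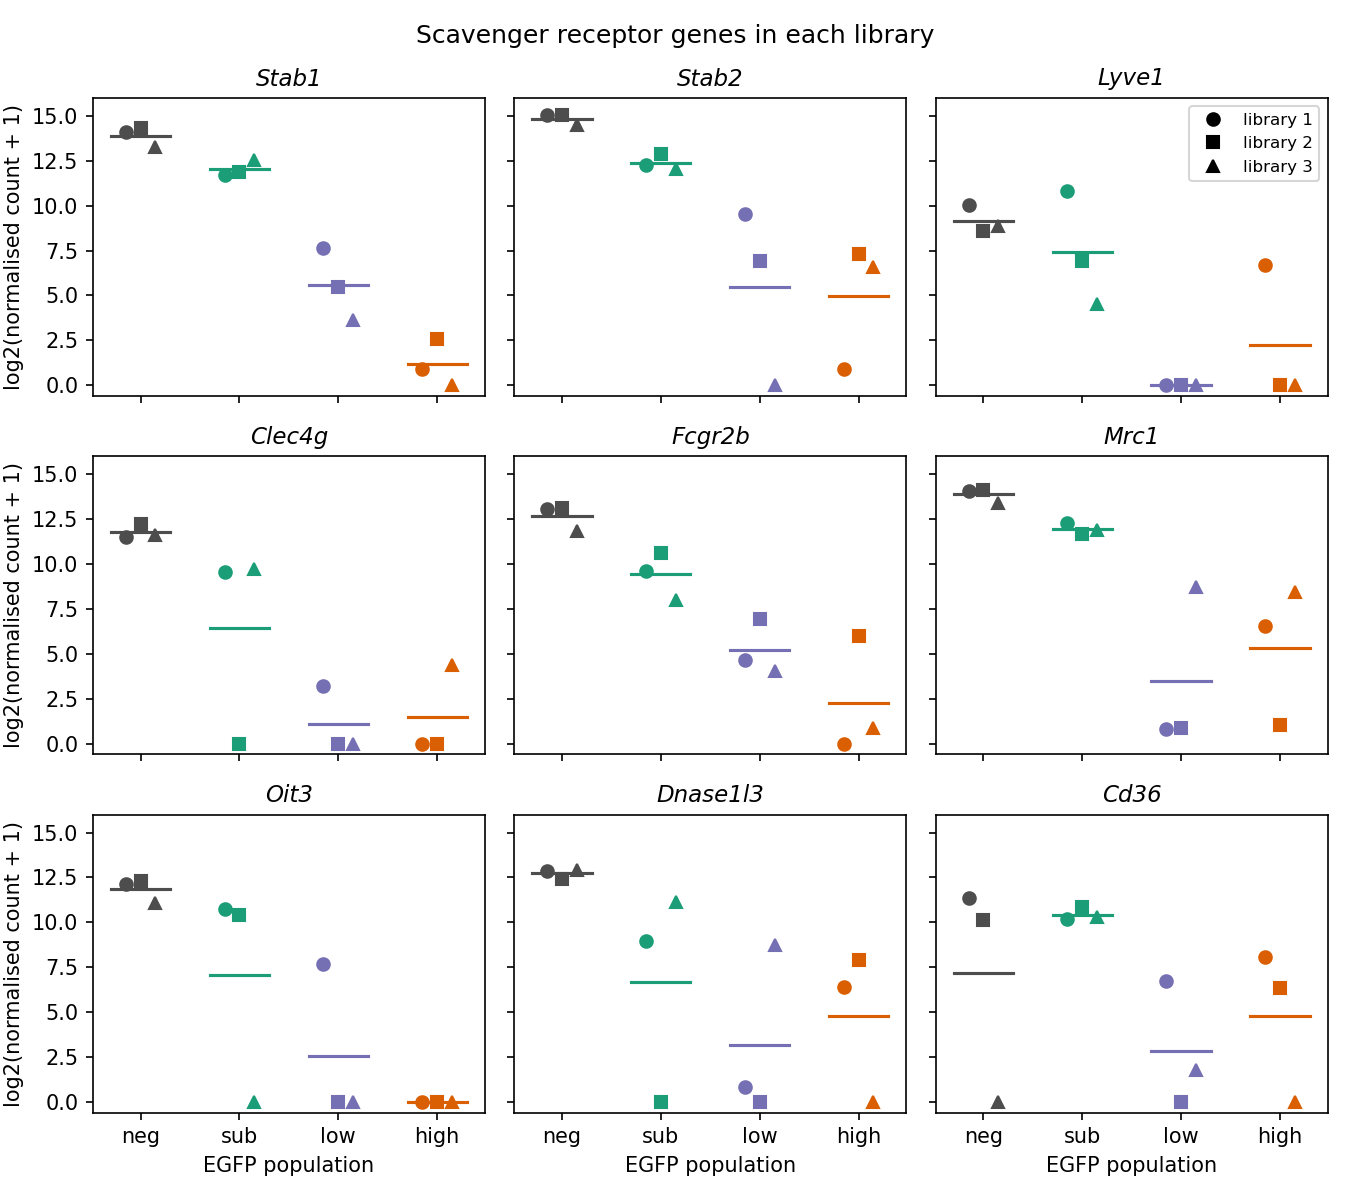
Normalised count (log axis, with 0 drawn at the foot) of each of the 9 genes in the 4 EGFP populations, 1 point per library. The libraries of Stab1 and Stab2 lie lower in sub than in neg and lower again in low, without overlap, while the neg and sub libraries of Lyve1 and Cd36 overlap.

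Per kilobase of merged exon, which allows levels of different genes to be set side by side, Stab2 was highest in neg at 3438 ± 671 (SD, n = 3) and Mrc1 next at 2409 ± 595, apart by more than either SD. A group of 5 genes followed within their spread of each other: Stab1 at 1544 ± 517, Clec4g at 1481 ± 428, Oit3 at 1397 ± 557, Dnase1l3 at 1339.8 ± 231 and Fcgr2b at 1223 ± 508. Cd36 and Lyve1 were lowest, Lyve1 at 217 ± 123, and Cd36 had 1 library at 0. In sub the order began with the same 3 genes, Stab2 at 636 ± 198, Mrc1 at 623 ± 135 and Stab1 at 429 ± 139, with Stab2 and Mrc1 within their spread of each other and Mrc1 and Stab1 apart by more than either SD. Cd36 came next in sub at 394 ± 107, and Fcgr2b was last at 150.3 ± 113. The order in low and high rests on values near the floor and is not given.

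Summed over the 9 genes, the normalised count was 95576, 97249 and 61348 in neg, 19932, 19474 and 18579 in sub, 1280.2, 285 and 881 in low, and 552, 544 and 467 in high. The sub libraries differed little in this sum, although single members varied several-fold among them. The sum took 0.584% to 0.906% of a neg library, 0.169% to 0.177% of a sub library, and at most 0.0117% of a low and 0.00512% of a high library. Stab2 alone made up 34.4% to 38.0% of the sum in neg, and Mrc1 17.9% to 18.2%. In sub the make-up was less even, with Stab2 at 22.5% to 38.6%, Stab1 at 16.9% to 32.5% and Lyve1 at 8.89% in sub 1 against 0.118% and 0.623% in the other sub libraries. In bulk samples such as these, fewer cells of a type and less RNA per cell cannot be told apart.

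The comparison of sub with neg asks how the faintest EGFP-positive cells differ from EGFP-negative ones. The sub mean was below the neg mean for 7 of the 9 genes, and for the other 2, Lyve1 and Cd36, its place depended on 1 library. It was 12.3% of the neg mean for Fcgr2b, 13.1% for Dnase1l3, 14.4% for Clec4g, 18.5% for Stab2, 25.9% for Mrc1, 26.3% for Oit3 and 27.8% for Stab1, against 100.9% for Lyve1 and 113.7% for Cd36. Without sub 1, the share of Lyve1 was 11.3%, as low as that of the 7, and Cd36 ran from 75.8% without neg 3 to 256% without neg 1. Single sub libraries also moved Fcgr2b (7.41% without sub 2), Dnase1l3 (3.57% without sub 3), Clec4g (21.6% without sub 2) and Oit3 (39.5% without sub 3). The libraries of those 7 did not overlap between the populations, where 4.99% of all tested genes were lower in sub without overlap. Differences were tested with limma on log2(normalised count + 1), with Benjamini-Hochberg adjustment over all 16128 genes and a threshold of 0.05. No member passed (0 of 9), against 0.149% of all tested genes lower and 1.19% in either direction. At an unadjusted p under 0.05 there were 1539 of the 16128 tested genes and 1 of the 9 members, Dnase1l3. It had a log2 difference of -6.05 ± 2.88 (SE) and an adjusted p of 0.521. That difference rests on sub 2, where Dnase1l3 was listed at 0, and was -2.70 without it (adjusted p = 0.778). On recovered reads of 10 libraries edgeR called 0 of 9, against 0.0849% of its genes lower in sub. DESeq2 called 0 of the 6 members for which it gave a p-value, which leaves out Stab2, Mrc1 and Dnase1l3 in every comparison, against 6.73% of its genes lower in sub, a far larger share than in limma.

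The limma differences of the members are therefore given as values. Stab2 was 5.40 times lower in sub by its means (log2 difference -2.46 ± 1.83, limma adjusted p = 0.703), and Stab1 3.60 times lower (-1.83 ± 1.42, adjusted p = 0.703). For Fcgr2b the ratio was 8.13, or 13.5 without sub 2 (-3.27 ± 1.84, adjusted p = 0.626), and for Mrc1 3.87 (-1.94 ± 1.93, adjusted p = 0.753). In this fit limma draws each gene's spread from all 12 libraries, the low and high ones included. Fitted on neg and sub alone, the adjusted p was 0.301 for Stab2 and 0.401 for Mrc1. No member passed in that fit, nor did any of the 16128 tested genes (0 called). Cd36 had a log2 difference of 3.28 ± 2.90 (adjusted p = 0.736), which came to -0.30 without neg 3, the library where it was listed at 0. Lyve1 had -1.75 ± 2.58 (adjusted p = 0.859), of the opposite sign in edgeR (0.64) and DESeq2 (0.58).

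Sinusoidal identity and pan-endothelial genes also mostly lay lower in sub by their means, although of these only Maf passed the test (below). Among genes with a neg mean of at least 500, the median sub level as a percentage of neg was 25.9% over the 9 members, 26.2% over 14 other sinusoidal endothelial genes and 33.4% over 12 pan-endothelial genes (Kdr is in both of these lists), against 77.3% over all 4024 such genes. The cut used the neg mean, which is also the denominator. It therefore left out genes low in neg and higher in sub, such as Prox1 (means of 372 and 3542). Prox1 is on the lymphatic list, but its means were higher still in low (5956) and high (6742). Under 30% of the neg mean were 7 of the 9 members (5 to 7 with 1 library left out), 8 of the 14 and 6 of the 12, and 15.6% of all. Large-vessel and capillary endothelial genes lay higher, with a median of 86.5% over 5 genes, from 10.7% (Sox17) to 233% (Efnb2). In low, Efnb2 and Vcam1 stood at 137% and 124% of neg, where the median of the 5 was 0.729%. Lymphatic genes had a median of 231% over 4 genes, from 59.1% (Flt4) to 784% (Mmrn1). Flt4 is also on the sinusoidal list, and Reln, another of the 4, is on the stellate list. Stellate and mesenchymal genes had a median of 124% over 13 genes. The ratio of the member sum to the pan-endothelial sum was 0.452 to 0.663 in neg and 0.378 to 0.481 in sub, so these ranges overlapped. Differences between these lists were not tested.

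**Figure D2:**
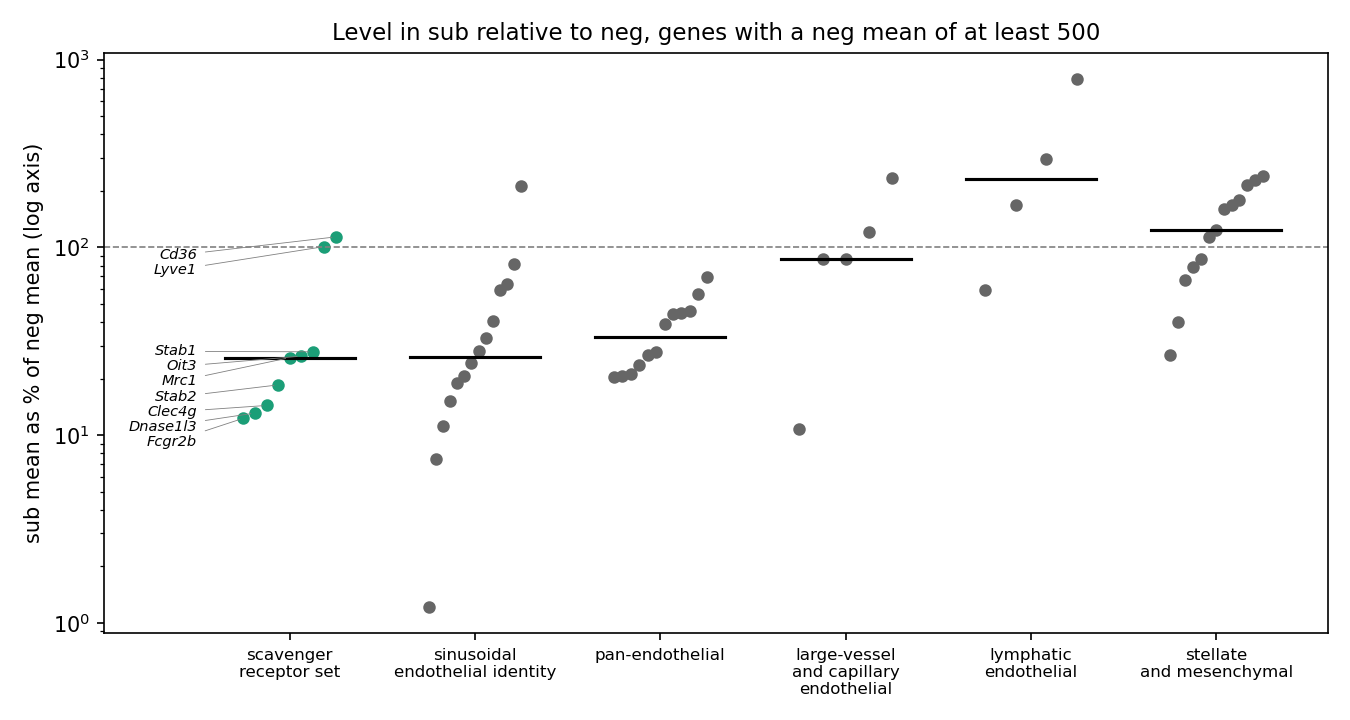
Sub mean as a percentage of the neg mean (log axis) for each gene with a neg mean of at least 500, by gene list, with the list's median as a bar and 100% as a dashed line. Of the 9 members 7 lie under 30%, beside sinusoidal and pan-endothelial genes, and Lyve1 and Cd36 lie at 100.9% and 113.7%, where Lyve1 would lie at 11.3% without sub 1.

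Of the 16 sinusoidal identity genes, 1 fell from neg to sub: Maf, a transcription factor that drives the sinusoidal programme, from 24987 ± 4087 to 7036 ± 1142 (SD, n = 3; limma adjusted p = 0.0107). The log2 difference was below 0 in 15 of the 16. All 12 pan-endothelial genes had a difference below 0, and 0 passed. Of all tested genes 0.149% were called lower in sub. In the same comparison 3 of 14 tested hepatocyte genes (Alb, Apob and Ahsg) and 7 of 14 biliary genes, Spp1 among them, rose, where 1.04% of all tested genes were called higher in sub. The 15 hepatocyte genes summed to between 664 and 1550.4 in neg and between 9955 and 11539 in sub, and the biliary genes other than Aqp1 to between 191 and 768 in neg and between 21316 and 38083 in sub. Aqp1, a water channel gene that is also on the sinusoidal list, was left out of that sum because it stood at 5823 to 10017 in neg, and it was at 2327 to 3746 in sub. The part of these cell types in the difference was not tested.

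The means of all 9 members were lower in low than in sub. The limma test called 2 of 9 members lower in low, against 0.614% of all tested genes lower and 0.744% in either direction. Stab1 fell by 6.46 ± 1.42 on the log2 scale (51.2-fold by means, or 35.7-fold without low 3 and 158-fold without low 1; adjusted p = 0.0397), and Mrc1 fell by 8.46 ± 1.93 (adjusted p = 0.0475). The Mrc1 reads in low were 516 in low 3 and 1 in each of the other libraries, so no fold by means is given for it. Libraries of 6 members did not overlap (Stab1, Stab2, Lyve1, Fcgr2b, Mrc1 and Cd36), where 5.99% of tested genes were lower in low without overlap. Stab2 had a difference of -6.93 ± 1.83 with an adjusted p of 0.0938, and passed with a pseudocount of 5 (0.0193) and without low 1 (0.0397). Lyve1 was at least 250.5-fold lower in low, counted against a floor of 3 reads in each low library, with an adjusted p of 0.247 in limma. Without sub 1, its highest sub library, that bound is 28.1-fold. DESeq2, which leaves out sub 3, the lowest sub library of Lyve1, gave 0.00071 and called no other member, against 4.95% of its genes lower in low. It was the 1 alternative of 22 in which Lyve1 passed. Stab2 and Lyve1, the hyaluronan receptors of the set, were thus lower in every low library than in every sub library. Cd44, one of the hyaluronan handling genes counted below, lay the other way. It stood at 908, 617 and 340 in sub and at 1705, 2085 and 1239 in low (limma adjusted p = 0.805). Cd36 had a difference of -7.59 ± 2.90 (adjusted p = 0.330) and Fcgr2b one of -4.21 ± 1.84 (adjusted p = 0.442), and edgeR called Fcgr2b (0.0311), against 0.629% of its genes lower in low.

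Neither call held under every alternative. That on Stab1 held in 10 of 22 alternatives, with adjusted p-values of 0.00476 to 0.266. It was lost without any 1 neg library (0.0755 to 0.0810), without any 1 sub library (0.0948 to 0.151), and without low 2 (0.0935) or low 3 (0.0951). The call thus needed every neg and every sub library. It was also lost in DESeq2 (0.0837), with a replicate block (0.0585), on the 10 libraries of the count tests (0.145) and with only the 2 populations (0.266). That on Mrc1 held in 6 of 21, with adjusted p-values of 0.0108 to 0.451. It was lost without any 1 neg library (0.0941 to 0.0954), any 1 sub library (0.146 to 0.162), low 1 (0.145), low 2 (0.175), high 1 (0.0653) or high 3 (0.0553). It was also lost in edgeR (0.251), on the 10 libraries (0.128), without the filter (0.144), without the variance trend (0.147) and with only the 2 populations (0.451), and DESeq2 gave it no p-value.

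Some endothelial genes outside the receptor set were also called lower in low than in sub, where 0.614% of all tested genes were. Of 12 pan-endothelial genes 5 fell (Pecam1, Cdh5, Erg, Flt1 and Ptprb), and Ptprb went from 13016 ± 3470.5 to 637 ± 362 (SD, n = 3; limma adjusted p = 0.00159). Of 16 sinusoidal identity genes 4 fell: the transcription factors Gata4 and Maf, the endocytic trafficking gene Ehd3 and the guidance cue Ntn4. Of 14 stellate and mesenchymal genes 5 fell, and their sum lay between 29114 and 41949 in sub and between 818 and 2982 in low. The part of either cell type's abundance in the receptor levels was not tested.

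Both brighter populations held little of these transcripts beside neg. The low and high comparisons share the neg libraries, so their values are set side by side and are not independent. The limma test called 6 of 9 members lower in low than in neg, where 2.15% of tested genes were lower and 4.69% changed in either direction. It called 6 of 9 lower in high than in neg, where 2.25% were lower and 4.69% changed. In each comparison the libraries of 8 members, all but Cd36, did not overlap, against 8.52% of tested genes lower without overlap in low and 8.61% in high.

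Stab1 was 184-fold lower in low by means (fell by 8.29 ± 1.42 on the log2 scale, limma adjusted p = 0.00136), a fold of 129 without low 3 and 570.3 without low 1. In high it fell by 12.73 ± 1.42 (adjusted p = 1.04e-05) and had 1, 5 and 0 reads, too few to give a fold. These calls held in all 22 alternatives. Stab2 fell by 9.39 ± 1.83 in low (106-fold by means, 509.8-fold without low 1, adjusted p = 0.00447) and fell by 9.91 ± 1.83 in high (352-fold, 619-fold without high 2, adjusted p = 0.00245). Its calls held in 19 and 20 of 21 alternatives, and none was lost by leaving out a library.

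Mrc1 fell by 10.40 ± 1.93 on the log2 scale in low (limma adjusted p = 0.00303) and fell by 8.53 ± 1.93 in high (adjusted p = 0.0127). The call in low held in 20 of 21 alternatives and that in high in 12 of 21. The call in high was lost without high 2 (0.0751), neg 1 (0.0624), neg 2 (0.0686) or neg 3 (0.0544), in edgeR (0.108), on the 10 libraries (0.113), without the filter (0.0502), without the variance trend (0.0680) and with only the 2 populations (0.109). The mannose receptor was above 3 reads in 2 of the high libraries and in 1 low library. Fcgr2b fell by 7.48 ± 1.84 in low (adjusted p = 0.0228) and fell by 10.41 ± 1.84 in high (adjusted p = 0.00168). Its call in high held in 21 of 22 alternatives and that in low in 17 of 22. The latter was lost without low 1 (0.0637), low 3 (0.0772), neg 1 (0.0840), neg 2 (0.0871) or neg 3 (0.0577). Every low and high library of Fcgr2b was nonetheless below every neg library. Clec4g fell by 10.73 ± 2.73 in low (adjusted p = 0.0273) and fell by 10.34 ± 2.73 in high (adjusted p = 0.0337). Its libraries too lay below every neg library, but its calls held in only 16 and 13 of 22 alternatives. The call in low was lost without low 2 (0.0878), low 3 (0.0922), neg 1 (0.0713), neg 2 (0.0863) or neg 3 (0.0781), and without the filter (0.0521). The call in high was lost without high 1 (0.118), high 2 (0.117), neg 1 (0.0821), neg 2 (0.0999) or neg 3 (0.0887), in edgeR (0.167) and DESeq2 (0.0536), on the 10 libraries (0.120) and without the filter (0.0606).

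The remaining members each passed in at most 1 of the pair. Lyve1 was at least 248-fold lower in low than in neg (fell by 9.16 ± 2.58 on the log2 scale, limma adjusted p = 0.0468), a call held in 10 of 22 alternatives. It was lost on leaving out any 1 low library (0.0997 to 0.109), any 1 neg library (0.0907 to 0.118), sub 2 (0.0525), high 2 (0.0549) or high 3 (0.0505), in edgeR (0.0663), without the filter (0.0703) and with only the 2 populations (0.0831). In high, where 1 library held it at 102, its adjusted p was 0.153. Lyve1 was the member with the lowest mean in neg. Oit3 was at least 1284-fold lower in high (fell by 11.83 ± 2.91, adjusted p = 0.0223), a call held in 15 of 22 alternatives and lost on leaving out any 1 high library (0.0699 to 0.0770) or any 1 neg library (0.0640 to 0.0810) and without the filter (0.0520). In low the log2 difference of Oit3 was -9.27 ± 2.91, with an adjusted p of 0.0806, and it passed without low 1 (0.0453) or sub 3 (0.0289), with a pseudocount of 5 (0.0331) and on the 10 libraries (0.0372). It was listed at 0 in 5 of the 6 low and high libraries. Dnase1l3 had a log2 difference of -9.56 ± 2.88 in low (adjusted p = 0.0653) and of -7.97 ± 2.88 in high (adjusted p = 0.137), and it passed with a pseudocount of 5 in both (0.0184 and 0.0437) and in low without low 3 (0.0397) or sub 2 (0.0290). Cd36 passed in neither (adjusted p = 0.529 in low and 0.735 in high), and its neg libraries, from 0 to 2625, overlapped both.

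**Figure D3:**
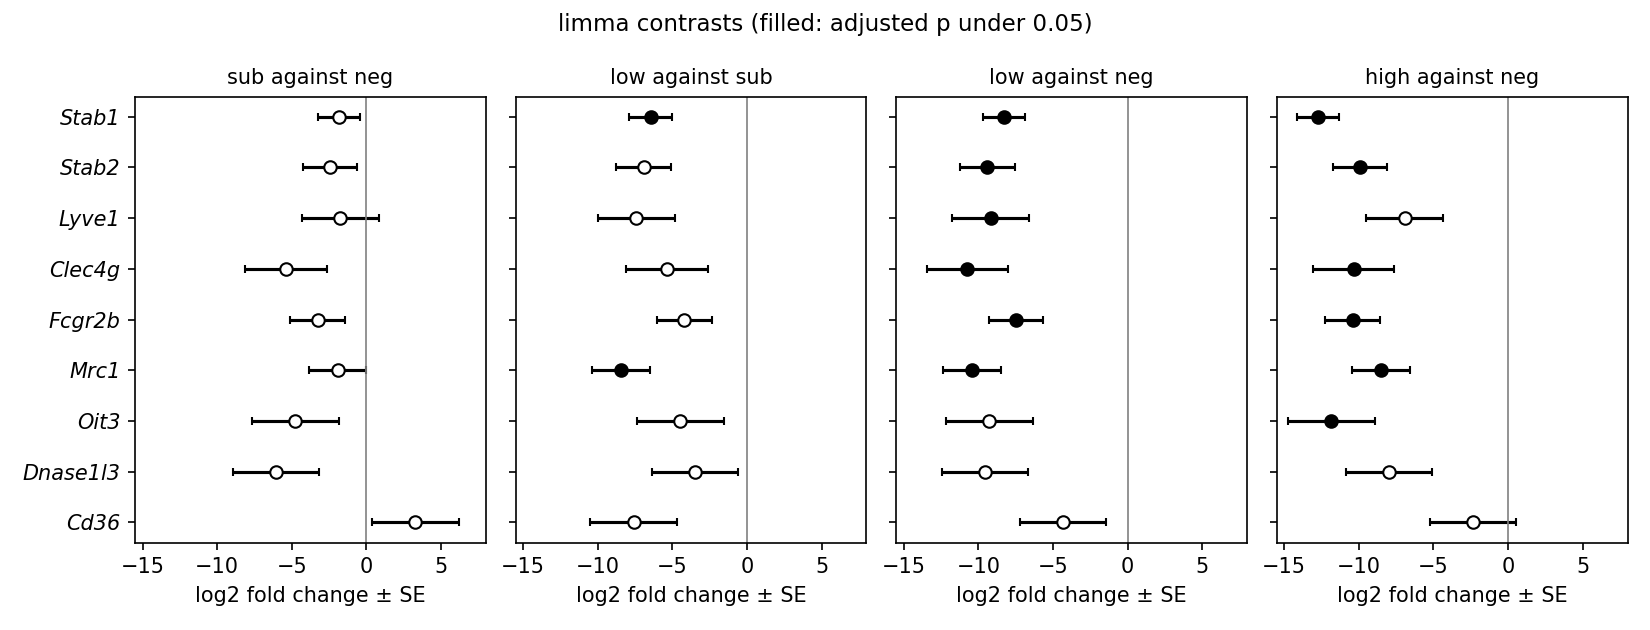
Log2 difference between populations ± SE from limma for each of the 9 genes, in 4 comparisons, with filled points where the adjusted p was under 0.05. No point is filled for sub against neg, 2 are for low against sub, and 6 are for each of low and high against neg.

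Between high and sub the test called 1 of 9 members, Stab1, against 0.868% of tested genes lower and 0.986% in either direction. Stab1 fell by 10.89 ± 1.42 on the log2 scale (limma adjusted p = 0.000527), and the call held in 21 of 22 alternatives. Libraries of 5 members did not overlap (Stab1, Stab2, Fcgr2b, Mrc1 and Cd36), against 5.91% of tested genes lower in high without overlap. The adjusted p was 0.0588 for Stab2, 0.0771 for Fcgr2b and 0.133 for Mrc1. These 3 were the members nearest the threshold. Stab2 passed without low 1 (0.0456) or low 3 (0.00772) and with a pseudocount of 5 (0.00617). Fcgr2b passed without high 2 (0.0358), in edgeR (0.00118) and in DESeq2 (0.000373). Mrc1 passed with a pseudocount of 5 (0.0371), and Oit3, at 0.389 in limma, passed in DESeq2 (1.39e-10). Both count tests leave out high 2, the library with 61 Fcgr2b reads where the other high libraries had 0 and 1, and sub 3, where Oit3 was listed at 0. The passes of Fcgr2b thus share the omission of high 2, and that of Oit3 lacks sub 3. On the same 10 libraries limma called 1 member, Stab1, and neither Fcgr2b nor Oit3, beside 28 of 15750 genes. Lower in high were 0.481% of the genes with an adjusted p in edgeR and 5.79% in DESeq2.

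Between high and low no member passed in limma, nor did any of the 16128 genes (0% called). At an unadjusted p under 0.05 there were 684 of the 16128 tested genes and 1 of the 9 members, Stab1. Stab1 had a log2 difference of -4.44 ± 1.42 and an unadjusted p of 0.00566. It was also the 1 member of 9 whose high libraries lay wholly below the low ones, where 3.28% of tested genes did. Among the count tests edgeR called Stab1 (adjusted p = 0.0372) and DESeq2 called Oit3 (adjusted p = 7.73e-09), a gene listed at 207 in low 1 and at 0 in the other low and in all high libraries. Neither count test held high 2, the high library with most Stab1 reads, and they called 0.0283% (edgeR) and 3.23% (DESeq2) of their genes lower in high. Of the 9 members 4 were lower in high by limma's log2 difference, with a median of 0.39 against 0.00 over all tested genes. Neither value was stable: from 2 to 5 members were lower over the alternatives, leaving DESeq2 aside, and the median ran from -1.68 to 0.53, with Stab2, Clec4g and Dnase1l3 changing sign. The median is the value of Clec4g, which had 11 reads in 1 low library and 24 in 1 high library, and was -1.07 without high 3. The same median was -2.46 for sub against neg, -6.46 for low against sub, -9.27 for low against neg, -9.91 for high against neg and -6.59 for high against sub, where the median over all tested genes lay between 0.00 and 0.20.

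Several of these receptors are also made by macrophages, above all Mrc1, Stab1, Fcgr2b and Cd36, so macrophage markers were read in the same libraries. Summed over 15 Kupffer cell and macrophage markers the level was 1062, 227 and 65.7 in neg, 542 to 615 in sub, 925 to 1233 in low and 520.3 to 1679.6 in high. Most of the sum in low came from 1 gene, Csf1r, and without it the other 14 markers stood at 255, 285 and 99.4 in low and at 734, 168 and 1.63 in high. In neg 10 of the 15 were at 0 in all 3 libraries, among them the Kupffer markers Clec4f, Vsig4 and Timd4, the receptor gene Csf1r and the lysozyme gene Lyz2. The same held for 6 of the 15 in sub, 9 in low and 8 in high. Of all 54227 symbols, 33571 were at 0 in all 12 libraries. C1qa and C1qc were at 0 in all 12 libraries. Csf1r, the receptor for the macrophage growth factor, was called higher than in neg both in low and in high (limma adjusted p = 0.0162 and 0.0189). It was the 1 marker called of 7 tested in each comparison. Of the 16128 tested genes, 411 were called higher in low than in neg and 394 in high. Other leukocyte markers, 12 genes, summed to 58.7, 2085 and 8.69 in neg, and to 0 in every sub library. The part of these cells in the receptor levels was not tested.

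**Figure D4:**
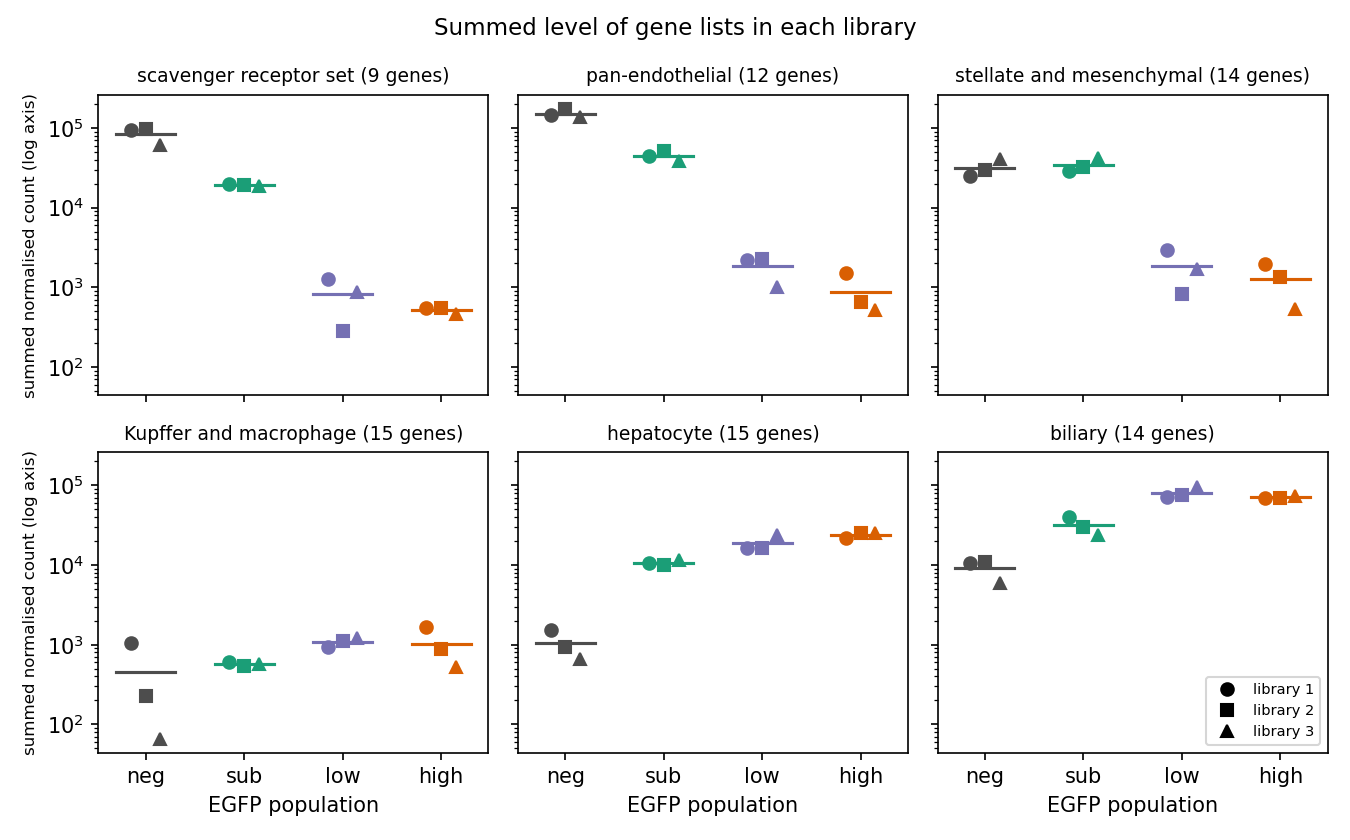
Summed normalised count (log axis) of 6 gene lists in each library, with the mean of each population as a line. The scavenger receptor set and the pan-endothelial genes lie lower in sub than in neg and lower again in low. The stellate and mesenchymal genes overlap in neg and sub and lie lower in low and high. The macrophage markers lie below the receptor set in neg and sub, and their means lie above its mean in low and high. Those means include Csf1r. Without it the other 14 markers stood at 255, 285 and 99.4 in low and at 734, 168 and 1.63 in high.

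Other receptors and the shared uptake machinery were read beside the members. Of 31 other scavenger and endocytic receptor genes 26 were tested, and their sum was 44925 to 56039 in neg, 42303 to 52668 in sub, 31150.4 to 34671 in low and 33251 to 42988 in high. From neg to sub their median log2 difference was 0.10, and 1 rose, the scavenger receptor gene Scara3, listed at 0 in neg and at 1881 to 4159 in sub. Between sub and low 1 fell, the large lipoprotein receptor gene Lrp1, from 17127 ± 5238 to 2174 ± 794 (SD, n = 3; limma adjusted p = 0.000145). From neg to low 2 fell (Lrp1 and Lrp5) and 1 rose (Scara3). Of all tested genes, 1.04% were called higher in sub than in neg and 0.614% lower in low than in sub. Against neg, 2.15% were called lower in low and 4.69% changed in either direction. Msr1, the class A macrophage scavenger receptor, was at 1008, 318 and 0 in neg, at 1037, 1757 and 221 in sub, and listed at 0 in all low and high libraries.

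Genes of the machinery that carries such receptors were counted in the same way. Among 35 genes of clathrin endocytosis and the lysosome 0 passed between neg and sub and between sub and low, where 1.19% and 0.744% of all tested genes did, with medians of -0.86 and 0.43. Dab2, a clathrin adaptor, was the 1 gene of the 35 that passed in low and in high against neg, beside 2.15% and 2.25% of all tested genes called lower. It was lower in both, at 8394, 5577 and 5184 in neg, 109, 0 and 131 in low and 402, 0 and 151 in high. Cltc, the clathrin heavy chain gene, stood at 6798 ± 2005 in neg and 5322 ± 1177 in low (SD, n = 3). Of 14 genes of hyaluronan handling 12 were tested, and 1 fell from neg to low and to high: Cemip2, a cell surface hyaluronidase, from 8536 ± 2757 in neg to 1228 ± 247 in low and 608 ± 517 in high.

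Over the 12 libraries and on the log2 scale, the members resembled each other to different degrees. Pearson's r was 0.93 between Stab1 and Fcgr2b, 0.89 between Stab1 and Stab2 and 0.87 between Stab2 and Fcgr2b. It was lowest for Cd36, at 0.30 to 0.58 with the other members, and Dnase1l3 had 0.34 with Oit3 and 0.36 with Stab2. These values describe 12 libraries drawn from 4 populations, and they were not tested. Among 9614 genes with a mean of at least 100, the 10 closest to the members' mean profile were Serpina3g, Col13a1, Nhsl2, Robo4, Ifi204, Ets1, Ehd3, Hecw2, Dchs1 and Xdh, with r from 0.97 to 0.98. Serpina3g, a serine protease inhibitor gene, stood at 3296 ± 1742 in neg and 756 ± 182 in sub (SD, n = 3), and Robo4 is an endothelial guidance receptor. The single closest gene to Stab1 was AC160336.1 (r = 0.99), to Stab2 Plxna2 (0.93), to Mrc1 Ece1 (0.96), to Fcgr2b Mylip (0.94), to Clec4g Abi3 (0.96), to Oit3 Tpbgl (0.97), to Dnase1l3 Arhgap45 (0.93), to Lyve1 Ushbp1 (0.96) and to Cd36 Hras (0.95).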

How the data were processed

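RNA from 12 libraries of sorted mouse liver cells was made into stranded total-RNA libraries (SMARTer Pico), per the labels' protocols. The deposited table holds normalised counts per gene symbol, a signal scaled per library by the authors; Salmon, DESeq2 1.26.0 and the mm10 build are named in the submitters' processing notes. Each value above 0 was a whole multiple of 1 step per library (tolerance 0.01 read), so whole or rounded reads were recovered. In 2 libraries (high 2 and sub 3) the step was near 1, at 1.01 and 0.997. A check on the unit refused steps so near 1, and the count tests used the other 10. The main test was limma 3.58.1 (R 4.3.3) on log2(normalised count + 1), with population as the only term, all 12 libraries, a variance trend, 6 comparisons, genes with a mean of at least 10 and Benjamini-Hochberg adjustment at 0.05, two-sided. It was also run on simulated counts with the same setting of spread for all genes. Those counts lacked the zeros beside high values seen here, so that run does not test limma on such values. The alternatives were a pseudocount of 5, no filter, a minimum mean of 100, equal library totals, no variance trend, a replicate block, only the 2 populations compared, edgeR 4.0.16 and DESeq2 1.42.0 on recovered reads, and each library left out. limma on the 10 libraries of the count tests was added after seeing the data. A population with at most 3 reads in every library counted as at the floor, and folds against it use 3 reads. Floors cover counting error only.

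The members and companion gene lists were chosen with earlier results of these data known, so no list is independent evidence. Named genes were all 9 members, list genes that passed the test, and those of a list with the highest means over the 12 libraries. The genes most correlated with the members over the 12 libraries were also named. Other genes were named after their values were seen. Of the 54227 symbols, 52258 matched GENCODE M21, all 9 members among them, and 33571 were at 0 in every library. Proteins and the promoter windows of 3 members were not used here.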

Additional observations from a re-analysis of the deposited data

How the results depend on the processing

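The direction of each member was the same under every alternative for low against sub and low against neg, and in the other comparisons 14 values changed sign and 2 came to 0, none of a called member. Main counts of genes were 192, 120, 0, 757, 757 and 159 for sub against neg, low against sub, high against low, low against neg, high against neg and high against sub. In that order DESeq2 gave 1514, 1329, 603, 1684, 1627 and 1267 genes, with 770 higher and 559 lower for low against sub where limma had 21 and 99, and 726 higher and 788 lower for sub against neg where limma had 168 and 24, and 614 higher and 653 lower for high against sub where limma had 19 and 140. edgeR gave 136 for sub against neg, 100 for low against sub, 7 for high against low, 410 for low against neg, 353 for high against neg and 78 for high against sub. limma on the 10 libraries gave 115 for sub against neg, 19 for low against sub, 387 for high against neg and 28 for high against sub. With only the 2 populations there were 0 for sub against neg, 0 for low against sub, 203 for low against neg, 341 for high against neg and 8 for high against sub. Without the variance trend there were 195 for low against sub and 22 for high against low, and without the filter 1 for high against low. Members called for low against sub, 2 of 9 in the report, were 1 in DESeq2 (Lyve1, neither of the 2), 1 without the filter and 1 without the trend, and 0 with the 10 libraries and with only the 2 populations. For high against low they were 1 in DESeq2 and 1 in edgeR. Members for low against neg, 6 of 9, were 3 with only the 2 populations, and for high against neg, 6 of 9, were 3 in DESeq2, which gave no p-value for Stab2, Mrc1 and Dnase1l3 and so tested 6 members, and 3 without the filter and with only the 2 populations. For high against sub, 1 of 9, they were 3 in DESeq2, 2 in edgeR, 3 with a pseudocount of 5 and 0 with only the 2 populations. Leaving out 1 library gave 135 to 239, 10 to 126, 0 to 4, 445 to 763, 424 to 773 and 46 to 176 genes, and 0 to 0, 0 to 2, 0 to 0, 3 to 7, 3 to 6 and 1 to 2 members. The lowest count for low against sub, 10, came without sub 2. Whether the replicate numbers pair the libraries is not stated: same-numbered libraries share a tag of unstated meaning, and their deviations correlated at -0.016 to 0.027, with 0 of 18 pairs over 0.1, while 8 of 12 libraries were closest to their own number. They were not treated as paired. The replicate block gave 180, 83, 1, 720, 715 and 130 genes, and 1 member for low against sub, where Stab1 had an adjusted p of 0.0585 and Mrc1 0.0299. Of the single-member values 1067 kept their side of the threshold, 22 passed it and 81 lost it. The cause of these shifts was not tested. With 3 libraries per population, each of 8775387 reads or more, a value of 0 beside high values in the same population limits what can be said of Clec4g, Oit3, Dnase1l3 and Cd36.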
